A study of Mus musculus with 9 samples.

Results

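Severe hyperosmotic stress was compared with iso-osmolar medium in mouse embryonic fibroblasts (MEFs), connective tissue cells grown from embryos, of the C57Bl/6 strain. The iso-osmolar group stood in DMEM with no sucrose added (300 mOsm) and the stressed group in DMEM with 300 mM sucrose added (600 mOsm), which was left on for 3 h at about 80% confluence. Each group was sequenced as 3 libraries of poly-T-selected RNA, so the comparison rests on 6 of the 9 libraries in the series, and the other 3 came from cells with 200 mM sucrose added (500 mOsm, 3 h). All 35275 genes of the deposited table were taken, of which 13082 had enough counts to be tested (edgeR's quasi-likelihood test on TMM-scaled counts of all 9 libraries, adjusted p under 0.05 over the genes tested). No allele or agent other than sucrose distinguished the groups, the study's methods count the MEFs among the cell lines of the laboratory without giving their origin, and nothing in the sources says whether the 3 libraries of a group came from separate cultures, so the p-values measure the spread between libraries, which may be technical. RNA was measured relative to the total of each library, and fewer cells cannot be told apart from less RNA per cell.

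Cells in hypertonic medium lose water and shrink, and they recover by pumping in salt at first and then by taking up or making small compatible osmolytes such as inositol, betaine, taurine and amino acids. The transcription factor TonEBP (Nfat5) drives the genes for these carriers and enzymes. Strong shrinkage also activates stress kinases, phosphorylates eIF2alpha and slows both translation and transcription. How far RNA polymerase II proceeds past the start of a gene is set by P-TEFb, a kinase that the 7SK particle holds inactive with the help of the proteins Hexim1 and Hexim2.

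The libraries held between 21716042 and 26740832 counts on genes, and the mean totals of the 600 and 300 mOsm groups differed by 765495 counts (exact two-sided permutation test, p = 0.8, where 3 against 3 cannot give less than 0.1). Levels are given in CPM, counts scaled to the same library total. A gene with 3 counts stood at 0.112 to 0.138 CPM, depending on the library, a floor that covers counting error only. The summed level of the fibroblast markers lay between 20879 and 22047 CPM at 300 mOsm and between 23592 and 25336 CPM at 600 mOsm, although Fap was at 0 in all 6 libraries and the markers Dcn and Lum were at or near 0. Endothelial markers summed to between 12.4 and 13.5 CPM at 300 mOsm and between 10.2 and 12.9 CPM at 600 mOsm, epithelial markers stayed under 1 CPM in these 6 libraries (4.04 to 4.84 CPM at 500 mOsm), and leukocyte markers summed to between 38.8 and 42.9 CPM and between 38.2 and 47.2 CPM. Muscle and neural markers, carried by Nes, were lower at 600 mOsm, with sums of 227 to 248 CPM against 290 to 312 CPM. A further property moved with the treatment. The genes Gm26917, Yam1 and Gm15564, of which Yam1 overlaps annotated ribosomal RNA along its whole 1831 bases, took 0.323, 0.396 and 0.441% of counts at 300 mOsm and 1.14, 1.001 and 1.66% at 600 mOsm, the most in replicate 3. The part of this difference in the results was not tested.

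At 600 mOsm 1977 genes were higher than at 300 mOsm, 15.1% of those tested, and 2617 were lower, 20.0%. The changes were small for most of these genes, with a median log2 fold change of 0.31 for the higher and -0.49 for the lower genes and of 0.0075 over all genes tested. Genes past the threshold and higher by at least 1 on the log2 scale numbered 316 (2.42%), and 426 genes (3.26%) were lower by as much. At 2 or more 188 genes were higher and 90 lower. Genes near silent at 300 mOsm can enter these counts by passing the filter on low counts through a stressed group. Of the 815 such protein-coding genes tested (under 0.5 CPM) 221 were higher and 5 lower at any size. Their part in the order at 2 or more was not tested. All 3 libraries at 600 mOsm lay above all 3 at 300 mOsm in 3003 genes (23.0% of those tested) and below them in 3334 genes (25.5%). The plot of fold changes by gene list shows where the named classes stood.

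**Figure D1:**
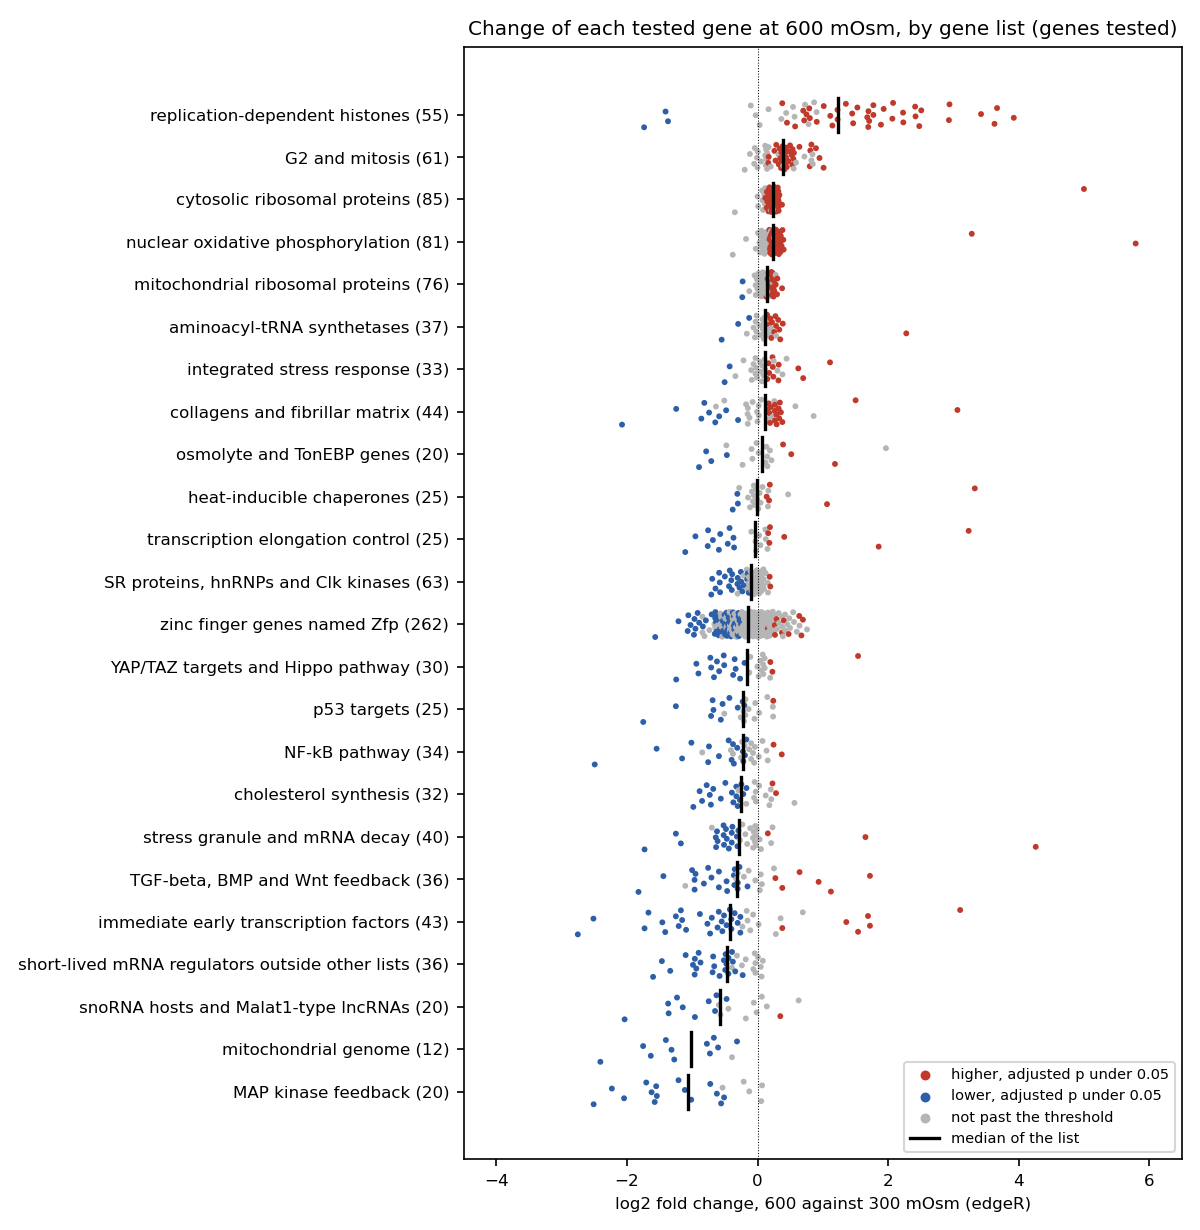
Log2 fold change between 600 and 300 mOsm (x axis, edgeR) of each tested gene, by gene list (rows, number of genes tested in parentheses). Points are red for genes higher and blue for genes lower at an adjusted p under 0.05, and grey for the others. A black bar marks the median of each list. Histone genes lie furthest to the right, with a median of 1.22, and genes of MAP kinase feedback and of the mitochondrial genome furthest to the left, with medians of -1.07 and -1.03.

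Hexim1 was the gene with the smallest p-value of all that differed between 600 and 300 mOsm. It lies on chr11:103116231-103119725 of mm10, on the plus strand. Its level was 49.8, 51.7 and 51.3 CPM in the 3 libraries at 300 mOsm, 108, 102 and 104 CPM at 500 mOsm and 498, 469 and 469.6 CPM at 600 mOsm. The treated libraries stood far above the others with no overlap, a log2 fold change of 3.23 ± 0.050 (SE, adjusted p = 6.27e-13). Hexim2, which forms the same inhibitory complex, rose from 2.96, 2.91 and 2.54 CPM to 10.00, 9.81 and 10.6 CPM (log2 fold change 1.85 ± 0.12, adjusted p = 2.89e-07), while at 500 mOsm it was lower than in iso-osmolar medium (-0.47, adjusted p = 0.0286). The difference of Hexim2 between 600 and 500 mOsm was itself past the threshold (adjusted p = 4.95e-08).

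The letters before the start of Hexim1 are shown because this gene led the comparison. The 250 bases on the plus strand, chr11:103116075-103116324, are those of RefSeq on GRCm38.p6, and the capitals mark the TATA-like run TATATAA, which begins 123 bases before the RefSeq start at 103116325, and ATTGG, the CCAAT sequence read on the other strand. The deposited table puts the start of Hexim1 94 bases further upstream, at 103116231, and counted from there TATATAA begins 29 bases before the start and the end of the printed stretch lies inside the gene.
Hexim1: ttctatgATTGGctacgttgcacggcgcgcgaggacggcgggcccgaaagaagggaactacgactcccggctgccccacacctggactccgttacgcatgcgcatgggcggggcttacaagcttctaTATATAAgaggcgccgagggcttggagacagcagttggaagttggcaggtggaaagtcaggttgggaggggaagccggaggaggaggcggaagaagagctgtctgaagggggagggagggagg
TATATAA was searched on both strands in the 250 bases before the RefSeq start, and 3.04% of the 32851 promoters in the table hold it, 1.46% of the 9836 tested genes that could be matched. CCAAT, searched in the same window, was found in 33.8% of all promoters. A match describes the letters and no factor was measured at it.

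Most genes that act with Hexim1 did not rise with it. Of 28 genes of transcription elongation control 25 were tested, 6 were higher and 11 lower (24.0 and 44.0%, beside 15.1 and 20.0% of all genes tested), and the median log2 fold change was -0.033. Larp7, which stabilizes the 7SK RNA, did not pass the threshold, with a log2 fold change of 0.15. Cdk9, the kinase of P-TEFb, fell from 72.5, 74.2 and 73.1 CPM to 54.9, 56.9 and 48.3 CPM, without overlap (-0.46 ± 0.062, adjusted p = 1.14e-04). Its cyclin partners Ccnt1 (-0.37 on the log2 scale) and Ccnt2 (-0.69) were lower as well, although the groups of Ccnt1 overlapped. Lower too were Aff1 and Aff4, scaffolds of the super elongation complex (log2 fold changes of -1.11 and -0.57), Ell2 (-0.95), Eaf1 (-0.76), Supt6 (-0.59), and the transcription kinases Cdk12 (-0.43) and Cdk13 (-0.36). Among the rest, Nelfcd, Supt4a, Ell and Mllt3 were higher by between 0.16 and 0.41. Leaving out replicate 1 or 3 of either group, or correcting for GC content and gene length together (the joint correction), brought the higher genes of this list from 6 to 3.

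**Figure D2:**
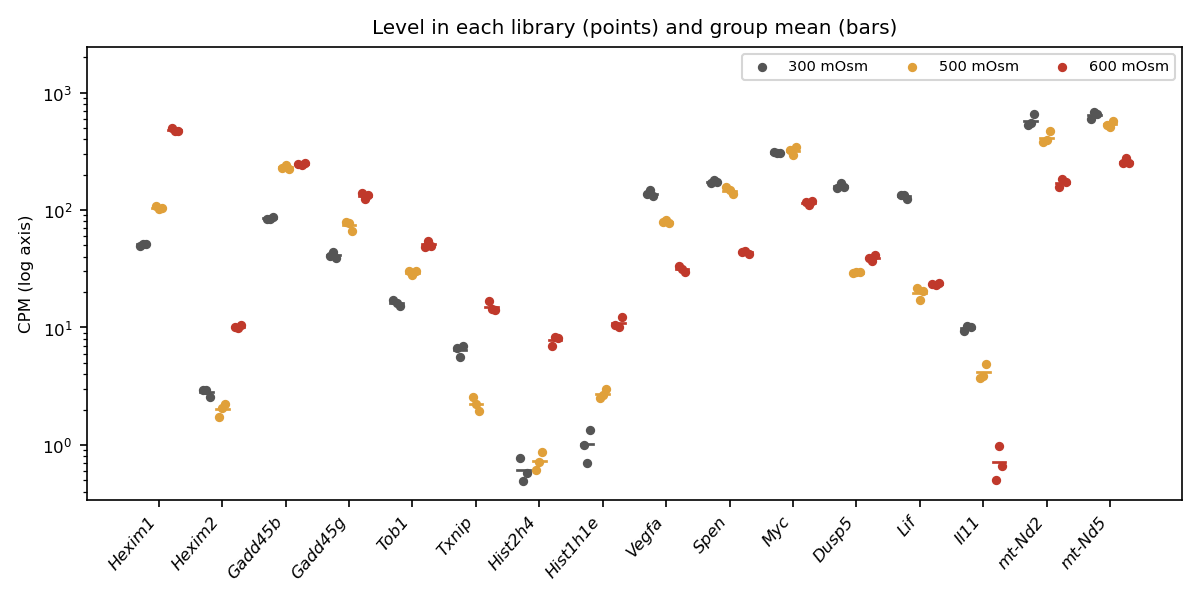
Level in CPM (y axis, log scale) of 16 genes in each library (points) with the mean of the group (short bars), at 300 mOsm (grey), 500 mOsm (orange) and 600 mOsm (red). Hexim1 stands near 50 CPM at 300 mOsm and between 469 and 498 CPM at 600 mOsm, and the groups at 300 and 600 mOsm do not overlap in any of the 16 genes.

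Histone genes rose as a class. The replication-dependent histones are made in S phase, and their main transcripts end in a stem-loop in place of a poly(A) tail, so that poly-T selection takes up only a part of them, and how this capture varied was not tested. Of 70 such genes listed, 55 had enough counts, 40 of them were higher and 3 lower, and the median log2 fold change was 1.22, beside 0.0075 over all genes tested. At 500 mOsm 11 were higher and 4 lower, with a median of 0.28. Directly between 600 and 500 mOsm 41 were higher and 0 lower, beside 11.9 and 17.2% of all genes tested. The sum over all members was 136 to 145 CPM at 300 mOsm and 204 to 217 CPM at 600 mOsm. With a filter of at least 10 counts in every library 35 members could be tested and 24 were higher.

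The linker histones, which bind the DNA between nucleosomes, showed this plainly. Hist1h1e was at 1.002, 0.696 and 1.35 CPM at 300 mOsm and at 10.5, 10.03 and 12.3 CPM at 600 mOsm (3.42 ± 0.19, adjusted p = 5.48e-08). Hist1h1d was at 0.546, 0.656 and 0.613 CPM and at 4.31, 3.90 and 5.80 CPM (2.94 ± 0.21), and Hist1h1a at 0.364, 0.328 and 0.245 CPM and 3.22, 3.94 and 4.52 CPM (3.63 ± 0.33). In all 3 genes every treated library was above every iso-osmolar one. Of the core histones, Hist2h4 rose from 0.774, 0.492 and 0.572 CPM to 6.99, 8.28 and 8.08 CPM (3.67 ± 0.19, adjusted p = 3.55e-08), and at 500 mOsm it was not past the threshold (adjusted p = 0.507). The H2A genes Hist1h2ak and Hist1h2ai were higher by 2.41 and 1.77. The 3 members that fell are also H2A genes, namely Hist1h2ap (-1.74), Hist1h2ao (-1.41) and Hist1h2ad (-1.37). Hist1h2ao was at 11.1, 13.2 and 12.9 CPM at 300 mOsm and at 4.19, 4.75 and 5.07 CPM at 600 mOsm. Histone genes of one type are close copies of each other, so counts of single members are uncertain where reads could be assigned to more than one.

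The promoters of 3 linker histones are shown because these genes rose together. They are the 120 bases before the annotated start from RefSeq on GRCm38.p6, of Hist1h1e at chr13:23622559-23622678 (minus strand), of Hist1h1d at chr13:23554912-23555031 (plus strand) and of Hist1h1a at chr13:23763548-23763667 (plus strand). Capitals mark the CCAAT box and the TATA box, where TATATAA overlaps with TATAAA as a single run in Hist1h1e and Hist1h1d. They also mark the linker histone box (letters AAACACA) in Hist1h1e. In Hist1h1d the match of AAACACA begins upstream of the 120 bases printed.
Hist1h1e: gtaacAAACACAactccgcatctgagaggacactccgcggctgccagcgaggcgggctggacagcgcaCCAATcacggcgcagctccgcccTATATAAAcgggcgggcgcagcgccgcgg
Hist1h1d: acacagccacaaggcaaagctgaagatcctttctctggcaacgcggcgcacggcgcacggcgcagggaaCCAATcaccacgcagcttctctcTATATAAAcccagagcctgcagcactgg
Hist1h1a: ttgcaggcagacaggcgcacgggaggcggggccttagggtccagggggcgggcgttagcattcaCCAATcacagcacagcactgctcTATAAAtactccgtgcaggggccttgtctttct
TATAAA, searched on the strand of the gene between 45 and 10 bases before the RefSeq start, begins 27, 26 and 33 bases before it in these genes, and CCAAT begins 52, 51 and 56 bases before it. The deposited table starts these genes 56, 55 and 49 bases further downstream. TATAAA in this place was found in 2.25% of all promoters and in 1.68% of those of tested genes. Among the matched genes higher by at least 1 on the log2 scale, 20 of 215 had it (9.30%), or 9 of the 189 of them that are not histones (4.76%), and among those lower by as much 9 of 272 (3.31%). Of the 7 linker histones tested and matched, 4 had TATAAA in this place. Among the 5 of this cluster Hist1h1c, which lacks it, had the smallest log2 fold change, 0.031. Hist1h1c also stood at a mean of 32.4 CPM at 300 mOsm, far above the 3 genes shown. Whether the motif or the level bears on the change was not tested. AAACACA, searched on both strands in the 250 bases before the start, was found in 6.25% of all promoters and before each of the 5 but Hist1h1a, whose fold change was the largest of them, so that Hist1h1c holds it, and CCAAT was found before all 5.

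Ribosomal protein genes were higher by a small amount. Of 85 cytosolic ribosomal protein genes tested 74 were higher and 0 lower, and the median log2 fold change was 0.24. Rpl7 stood at 563, 559 and 575 CPM at 300 mOsm and at 704, 717 and 698 CPM at 600 mOsm, and Rpl21 at 383, 379 and 377 CPM and 475, 481 and 463 CPM. The groups did not overlap in either gene, and both rose by 0.32 on the log2 scale (adjusted p = 7.88e-05 for Rpl7). Rpl3l, a paralog of muscle near silent at 300 mOsm, had the largest value (4.998), and the other 73 higher genes lay between 0.12 and 0.37. At 500 mOsm 2 members were higher and 1 lower. Subunits of oxidative phosphorylation encoded in the nucleus were likewise higher, 56 of 81, 0 lower and a median of 0.23. Cox7b, a subunit of cytochrome c oxidase, rose from 47.9, 49.7 and 50.7 CPM to 64.1, 63.6 and 65.4 CPM (0.38 ± 0.050, adjusted p = 9.30e-05), and Uqcrq of complex III rose by 0.35. Of 76 mitochondrial ribosomal proteins 29 were higher and 2 lower (median 0.14). Without replicate 1, 2 or 3 at 300 mOsm 13, 15 and 16 were higher, without replicate 1 or 3 at 600 mOsm 14 and 12, and 1 was lower without replicate 2 or 3 of either group.

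These counts depended on gene length. The median length was 928 bases for the cytosolic ribosomal protein genes and 971 bases for the nuclear oxidative phosphorylation genes, beside 3020 bases over all genes tested. After a correction for length in each library 21 ribosomal protein genes were higher and 2 lower (median 0.085), and 20 oxidative phosphorylation genes were higher and 0 lower (median 0.099). Of the mitochondrial ribosomal proteins 12 were then higher and 3 lower (median 0.057), and with the joint correction 22 and 4.

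The genes of the mitochondrial genome moved the other way. They encode the core subunits of the same respiratory complexes and are transcribed by a polymerase of their own. Of 12 tested 0 were higher and 11 lower, with a median log2 fold change of -1.03, and after the correction for length 12 were lower. The libraries were poly-T-selected, and how the capture of mitochondrial transcripts varied was not tested. The largest changes were in genes of complex I. mt-Nd3, a short gene, had a log2 fold change of -2.41 ± 0.28 (adjusted p = 3.37e-05). mt-Nd2 fell from 526, 547 and 657 CPM to 157, 182 and 174 CPM (-1.75 ± 0.096, adjusted p = 5.88e-08). mt-Nd5 stood at 594, 681 and 661 CPM and at 251, 275 and 249 CPM (-1.32 ± 0.066), and mt-Nd6, the gene of the light strand, at 131, 125 and 139.7 CPM and 54.04, 54.2 and 55.1 CPM (-1.28 ± 0.062). No library of one group reached the other in these genes. The fall was smaller for mt-Nd1 (-0.67), mt-Cytb (-0.61) and mt-Co1 (-0.32, adjusted p = 0.0289), and mt-Atp6 did not pass the threshold (-0.39, adjusted p = 0.13). The whole mitochondrial genome took between 0.537 and 0.632% of counts at 300 mOsm and between 0.320 and 0.403% at 600 mOsm. At 500 mOsm 11 of the 12 were lower as well, with a median of -0.73. Directly between 600 and 500 mOsm 5 were lower and 1 higher. Those lower at 600 than at 500 mOsm were mt-Nd3, mt-Nd4, mt-Nd2, mt-Nd5 and mt-Nd6 (for the last 3 adjusted p = 8.74e-07, 1.64e-07 and 3.14e-08), the higher one was mt-Nd1 (0.38, adjusted p = 0.0207), and mt-Co1 was not past the threshold between the intensities (adjusted p = 0.92).

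Genes of osmolyte uptake and synthesis were mostly not higher at 600 mOsm. Of 23 such genes 20 were tested, 3 were higher and 4 lower, and the median log2 fold change was 0.068, while at 500 mOsm 10 were higher and 0 lower with a median of 0.38. Nfat5, which encodes TonEBP itself, fell from 65.02, 58.8 and 79.2 CPM to 32.2, 45.04 and 31.9 CPM (-0.90 ± 0.15, adjusted p = 6.09e-04). Slc5a3, the inositol carrier, was at 17.7, 13.9 and 20.00 CPM at 300 mOsm, 50.3, 34.00 and 36.1 CPM at 500 mOsm and 9.59, 11.8 and 8.55 CPM at 600 mOsm. It was thus highest at 500 mOsm and lowest at 600 mOsm, with no overlap between groups. Slc38a2, the amino acid carrier SNAT2, was at 152, 138 and 147 CPM at 300 mOsm and at 146, 148 and 138 CPM at 600 mOsm, groups that overlapped (-0.016 ± 0.059, adjusted p = 0.856), against 887, 808 and 934 CPM at 500 mOsm. With a correction for transcript length the value of Slc38a2 was 0.090. Akr1b3, aldose reductase, which makes sorbitol, had a log2 fold change of 0.12 ± 0.048 at 600 mOsm (adjusted p = 0.0715) and of 1.37 at 500 mOsm, and the taurine carrier Slc6a6 one of -0.080 ± 0.046 (adjusted p = 0.197; 0.11 with the correction for length) and 0.56. For Slc38a2, Akr1b3 and Slc6a6 the difference between 600 and 500 mOsm was past the threshold (adjusted p = 1.38e-11, 1.99e-09 and 6.67e-07). The water channels Aqp5 and Aqp1 were the clearest higher members, with libraries of 6.47, 8.89 and 7.52 CPM at 300 mOsm and 16.3, 17.2 and 18.6 CPM at 600 mOsm for Aqp5 (1.18 ± 0.12, adjusted p = 7.53e-06) and a log2 fold change of 0.52 ± 0.056 for Aqp1. With the correction for length 5 genes of this list were higher and 4 lower, and with the joint correction 9 and 5. Without replicate 3 at 500 mOsm, which enters the estimate of the spread, 5 genes of this list were higher. The betaine carrier Slc6a12 was at 0 in all 6 libraries.

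Carriers, channels and kinases that act in volume recovery were lower more often than higher. Of 26 tested 2 were higher and 10 lower, beside 15.1 and 20.0% of all genes tested. Slc12a2, the sodium-potassium-chloride carrier that acts first when a cell has shrunk, fell from 45.4, 38.8 and 41.3 CPM to 25.1, 27.04 and 28.5 CPM (-0.64 ± 0.087, adjusted p = 1.30e-04), without overlap. Of the subunits of the volume-regulated anion channel, which lets osmolytes out of swollen cells, Lrrc8a (-0.71), Lrrc8c (-0.82) and Lrrc8d (-0.52) were lower and Lrrc8e was higher (0.38, adjusted p = 0.0437). Lrrc8e was lower at 500 mOsm (-0.87). Corrected for length, the list had 4 higher and 7 lower genes. Without replicate 1 or 3 at 300 mOsm, replicate 1 at 500 mOsm or replicate 1 or 3 at 600 mOsm 0 genes of the list were higher.

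In the integrated stress response, the program downstream of phosphorylated eIF2alpha, 11 of 33 genes were higher and 2 lower, and the median was 0.11. These were 33.3 and 6.06%, beside 15.1 and 20.0% of all genes tested. Ddit3, which encodes CHOP, rose from 9.88, 7.74 and 8.63 CPM to 13.5, 13.7 and 15.2 CPM (0.70 ± 0.10, adjusted p = 2.53e-04). Ppp1r15a, which encodes the eIF2alpha phosphatase subunit GADD34, was at 20.5, 23.9 and 22.4 CPM and at 28.2, 26.2 and 28.8 CPM, not overlapping but close (0.32 ± 0.070), against 183, 194 and 176 CPM at 500 mOsm. Ddit4, an inhibitor of mTOR, rose by 1.11 ± 0.11 at 600 mOsm and by 3.28 at 500 mOsm. For both genes 600 and 500 mOsm differed past the threshold (adjusted p = 2.10e-11 and 7.64e-09). Leaving out replicate 3 at 300 mOsm or replicate 1 at 600 mOsm brought the 11 higher genes to 6, and with the joint correction 15 were higher and 5 lower.

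Of 27 genes of the unfolded protein response of the endoplasmic reticulum 6 were higher and 8 lower. The shares were 22.2 and 29.6%, beside 15.1 and 20.0% of all genes tested. Lower were Ern1, a sensor of this response (-0.58), and the main chaperone Hspa5 (-0.24, adjusted p = 0.0159). The transcription factor Xbp1 fell from 41.2, 41.1 and 44.9 CPM to 18.96, 19.3 and 19.95 CPM (-1.13 ± 0.085, adjusted p = 7.68e-07). The higher members, among them Dnajb2 and Sdf2l1, rose by 0.16 to 0.32. Of 25 heat-inducible chaperones and their partners 5 were higher and 3 lower. Hspa1b, an inducible Hsp70, was at 22.4, 25.8 and 21.6 CPM at 300 mOsm, 680.2, 637 and 580.2 CPM at 500 mOsm and 47.9, 51.6 and 46.4 CPM at 600 mOsm, so that the severe stress raised it clearly but less than the moderate one (adjusted p = 5.27e-12 between the intensities). Hspa1a had the largest log2 fold change of the list, 3.33 ± 0.43, at a level far under that of Hspa1b, with 0.228, 0.205 and 0.204 CPM at 300 mOsm and 1.72, 3.45 and 1.43 CPM at 600 mOsm. Hspa1a and Hspa1b are near-identical copies and their reads may be shared. Corrected for length, 3 of the list were higher. The 3 lower genes were Hsph1 (-0.31), Hspd1 (-0.30) and Bag3 (-0.38). With replicate 1 at 600 mOsm left out, 3 members of each list were higher (for the chaperones also without replicate 3), and 5 genes of the unfolded protein response were lower without it or without replicate 1 at 300 mOsm.

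Genes switched on within the first hour of growth and stress signals were largely lower. Of 43 immediate early transcription factors and related genes 6 were higher and 28 lower, with a median log2 fold change of -0.43. Egr3 fell from 22.1, 26.6 and 23.1 CPM to 3.26, 3.36 and 3.98 CPM (-2.75 ± 0.12, adjusted p = 6.31e-09) and Myc from 314, 305 and 309 CPM to 118, 111 and 119 CPM (-1.42 ± 0.058, adjusted p = 4.99e-09). No treated library came near the others in these genes. Nr4a3 (-2.51), Zfp36l2 (-1.73), Ier3 (-1.46) and Btg2 (-1.25) were further lower members. The 6 higher genes were Gadd45b and Gadd45g, which bind stress kinases and act in growth arrest, Id2 and Id3, which block basic helix-loop-helix factors, Klf4 and the near-silent Egr4. Gadd45b rose from 83.6, 84.5 and 87.96 CPM to 249, 243 and 252 CPM (1.54 ± 0.048, adjusted p = 4.54e-10), Gadd45g from 40.5, 43.9 and 38.8 CPM to 139, 124 and 134 CPM (1.69 ± 0.076), and Id2 from 31.3, 29.2 and 29.2 CPM to 100.5, 105 and 90.1 CPM (1.72 ± 0.071). At 500 mOsm the same list had 25 higher and 8 lower genes, with a median of 0.52.

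Genes that restrain MAP kinase signalling had the lowest median of the lists. Of 20 tested 0 were higher and 15 lower, and the median was -1.07. Dusp5, a nuclear phosphatase of ERK, fell from 154, 169.8 and 158 CPM to 38.7, 36.8 and 41.1 CPM (-2.05 ± 0.059, adjusted p = 2.74e-10), and Dusp6, the cytoplasmic one, from 79.00, 85.6 and 77.2 CPM to 29.7, 26.1 and 25.2 CPM (-1.58 ± 0.081). Spry2 (-1.55), Phlda1 (-1.54), Errfi1 (-1.62) and the ERK-responsive factor Etv5 (-1.71) were also lower. An exception was Dusp1, which acts on p38 and JNK and stood at 51.6, 51.6 and 48.9 CPM at 300 mOsm and 52.8, 50.7 and 54.4 CPM at 600 mOsm with overlap (0.055 ± 0.060, adjusted p = 0.516) and at 606, 608 and 535 CPM at 500 mOsm. A further list held 36 regulators known for short-lived mRNAs, of which 0 were higher and 24 lower (median -0.46), among them Trib1 (-1.60), Kdm6b (-1.47) and Bhlhe40 (-1.34). mRNA stability was not measured here.

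Of 34 genes of the NF-kB pathway 2 were higher and 16 lower (median -0.23). The lower genes were inhibitors, subunits, receptors and adaptors. Nfkbia, the inhibitor IkB-alpha, was at 74.00, 75.5 and 73.4 CPM at 300 mOsm, 212, 223 and 217 CPM at 500 mOsm and 33.5, 33.4 and 33.1 CPM at 600 mOsm. It was lowest at 600 mOsm with no overlap (-1.16 ± 0.047, adjusted p = 4.99e-09) and highest at 500 mOsm. Tnfaip3, the deubiquitinase A20, and Nfkbiz showed the same order, with log2 fold changes of -1.01 and -2.50 at 600 mOsm and of 1.72 and 0.99 at 500 mOsm. The subunit gene Nfkb1 fell by 0.76 on the log2 scale, and Traf2 and Tab1, adaptors of the kinase cascade, were higher by 0.24 and 0.37. Either correction gave 4 higher genes.

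Inflammatory mediators went both ways, with 5 of 21 tested genes higher and 5 lower, 23.8% each, beside 15.1 and 20.0% of all genes tested. Il11 and Lif had the largest changes. Il11 fell from 9.29, 10.3 and 10.1 CPM to 0.502, 0.985 and 0.657 CPM (-3.79 ± 0.19, adjusted p = 3.55e-08), and Lif, a cytokine of the same family, fell from 134, 133 and 125 CPM to 23.3, 23.1 and 24.1 CPM (-2.48 ± 0.077, adjusted p = 4.54e-10). Ptgs2, which encodes the inducible cyclooxygenase (-1.62), Cxcl1 (-1.34) and Cx3cl1 (-1.29) were lower as well. Higher were Irf1 (0.41 ± 0.056, adjusted p = 1.14e-04), Tnfrsf9 (0.28 ± 0.092, adjusted p = 0.0308), Vcam1, Cxcl12 and Ptges. Ptges, a prostaglandin synthase, was at 0.137, 0 and 0.123 CPM at 300 mOsm and 0.251, 0.403 and 0.387 CPM at 600 mOsm, so that its log2 fold change of 1.97 rests on few counts. Irf1 was at 40.7, 39.9 and 40.6 CPM at 300 mOsm and 54.8, 51.8 and 54.95 CPM at 600 mOsm, and at 500 mOsm it was below both, at 21.3, 21.8 and 20.98 CPM. Ccl2 had a log2 fold change of -0.024 ± 0.093 at 600 mOsm (adjusted p = 0.866) and of 1.98 at 500 mOsm. Il6 and Nos2 were at or near 0 and could not be tested. Leaving out replicate 3 at 300 mOsm or any 1 library at 600 mOsm left 3 of the 5 higher genes. Of 26 interferon response genes 4 were higher and 3 lower (15.4 and 11.5%), led by Irf5 among the lower (-1.14).

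Of 25 targets of p53 1 was higher, the mitotic gene Gtse1, and 11 were lower (median -0.22), and without replicate 1 at 300 mOsm, or with the joint correction, 2 were higher. Cdkn1a, the cell cycle inhibitor p21, fell from 16.3, 17.3 and 14.6 CPM to 5.57, 4.34 and 4.41 CPM (-1.75 ± 0.12, adjusted p = 4.19e-07), and Mdm2, the ligase that degrades p53, fell by 0.68. Genes of G2 and mitosis were higher, 36 of 61 with 0 lower and a median of 0.39. Plk1, the mitotic kinase, rose from 181, 194 and 187 CPM to 281, 268 and 274 CPM (0.55 ± 0.047, adjusted p = 2.61e-06), and Psrc1, Ube2c and Cdc25b rose by 0.80, 0.53 and 0.52. The groups were apart in these genes. At 500 mOsm 29 were higher and 2 lower (median 0.27). The median length of this list was 3421 bases, and with the correction for length 46 were higher and 1 lower. Of 65 genes of G1/S and DNA replication 12 were higher and 8 lower (18.5 and 12.3%, beside 15.1 and 20.0% of all genes tested). Tk1 (0.35) and Gmnn (0.33) were among the former, and E2f3 (-0.83) and Ccne1 (-0.44) among the latter. The joint correction gave 23 higher and 7 lower genes of this list. How the cells were spread over the cell cycle was not measured.

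Among 23 genes of apoptosis 5 were higher and 5 lower, 21.7% each, beside 15.1 and 20.0% of all genes tested. Mcl1, an inhibitor of cell death, fell from 299, 298 and 277 CPM to 193, 184 and 221 CPM (-0.55 ± 0.064, adjusted p = 3.49e-05). The other lower genes were the inhibitors Bcl2 (-0.64), Bcl2l2 (-0.49) and Cflar (-0.64) and the death-promoting Bcl2l11 (-1.20). The higher genes were Casp8, Casp12, Bid, Bad and Bmf. Casp8 was at 15.7, 16.4 and 16.3 CPM at 300 mOsm and 19.8, 20.3 and 20.03 CPM at 600 mOsm (0.31 ± 0.090, adjusted p = 0.0174). Without replicate 1 or 3 at 300 mOsm, or without replicate 2 at 600 mOsm, 2, 3 and 3 genes of the list were higher.

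The genes with the smallest p-values that fell were of several kinds. Sema7a, a membrane-anchored semaphorin, fell from 71.8, 79.97 and 78.8 CPM to 6.66, 7.43 and 6.30 CPM (-3.50 ± 0.083, adjusted p = 6.36e-11). Vegfa, the main growth factor of blood vessels, fell from 136, 147 and 131 CPM to 33.2, 31.5 and 29.9 CPM (-2.13 ± 0.061, adjusted p = 2.74e-10), and Wnt11 fell by 2.90. In each of these the 600 mOsm libraries lay far below the iso-osmolar ones. Kctd11, an adaptor of a ubiquitin ligase, and Spen, a very large repressor that binds RNA, fell from 157, 159 and 151 CPM to 30.01, 29.1 and 30.6 CPM and from 168, 179 and 175 CPM to 43.9, 45.04 and 42.1 CPM. The log2 fold change of Spen was -1.995 ± 0.060 at 600 mOsm and -0.25 at 500 mOsm, a difference past the threshold (adjusted p = 4.99e-10). Trio (-1.51), Mast4 (-2.08), Mtss1 (-1.49), Zmiz1 (-1.57) and the predicted gene Gm22 (-2.43) had p-values of the same order. Foxj1, the regulator of motile cilia, and Tob1, which recruits deadenylases, were on the other side. Tob1 rose from 17.3, 16.1 and 15.3 CPM to 48.6, 54.6 and 49.4 CPM (1.65 ± 0.075, adjusted p = 1.21e-08), and Foxj1 from 0.455, 0.533 and 0.695 CPM to 6.40, 5.15 and 7.39 CPM (3.48 ± 0.21).

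Of 44 collagens and matrix genes tested 17 were higher and 9 lower. These were 38.6 and 20.5%, beside 15.1 and 20.0% of all genes tested, so the lower share was near that of all genes. Col1a1, the main chain of fibrillar collagen, rose from 8391, 9438 and 8999.6 CPM to 11069.7, 10456 and 12226 CPM (0.33 ± 0.064, adjusted p = 0.00163), and so did Col1a2 (0.26) and Sparc (0.34). Lower were Col3a1 (-0.65), Tnc (-0.82), Col12a1 (-0.48) and Col27a1 (-2.08). Of 61 genes of actin, SRF and focal adhesion 7 were higher and 24 lower (11.5 and 39.3%). Itga5, the fibronectin receptor chain, fell from 518, 566 and 520.3 CPM to 294, 272 and 287 CPM (-0.91 ± 0.053, adjusted p = 9.23e-08), and the heavy chains of non-muscle myosin Myh9 (-0.44) and Myh10 (-0.69) were lower, while the light chains Myl6 and Myl12a were higher (0.23 and 0.17). Without replicate 1 at 300 mOsm or replicate 3 at 600 mOsm, 4 genes of this list were higher.

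Of 30 genes of the YAP/TAZ and Hippo pathway 3 were higher and 15 lower. The target Ctgf fell from 149.9, 137 and 141 CPM to 64.6, 61.7 and 54.1 CPM (-1.25 ± 0.081, adjusted p = 2.13e-07), and Cyr61 was lower at 600 mOsm (-0.59) and higher at 500 mOsm (0.67). The kinase gene Lats1 and its scaffold Sav1 were lower as well (-0.91 and -0.94). With either correction 7 genes of the list were higher, and 13 (length) or 14 (joint) lower. In the feedback of TGF-beta, BMP and Wnt signalling 6 of 36 genes were higher and 20 lower, with a median of -0.32. Smad7, an inhibitory Smad, was at 113, 125 and 116 CPM at 300 mOsm, 491, 479 and 446 CPM at 500 mOsm and 59.4, 55.6 and 61.5 CPM at 600 mOsm. It was lowest at 600 mOsm and several times higher at 500 mOsm, without overlap. Skil (-0.82 at 600 mOsm) and Tgif1 (-0.71) showed the same order. Higher were Bmp4 (1.12 ± 0.13), the receptor Fzd2 (0.93 ± 0.13) and Smad6 (0.64 ± 0.12).

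Factors that act on RNA were lower more often than higher. Of 63 SR proteins, hnRNPs and their kinases 2 were higher and 22 lower, and Hnrnpd, which binds AU-rich mRNA, fell from 159, 140.2 and 135 CPM to 93.6, 97.8 and 76.8 CPM (-0.70 ± 0.087, adjusted p = 6.28e-05). Corrected for length, 7 of these were higher and 21 lower, and with the joint correction 10 and 23. Of 40 genes of stress granules and mRNA decay 3 were higher and 19 lower, the latter with Zfp36l2, Dcp2 (-0.64) and Atxn2 (-0.62), and with the same corrections 6 and 7 were higher and 15 and 20 lower. Of 20 long non-coding transcripts, many of them hosts of small nucleolar RNAs, 1 was higher and 10 were lower with a median of -0.58. Neat1, the scaffold of paraspeckles, fell from 59.6, 68.3 and 93.5 CPM to 18.1, 18.98 and 16.9 CPM (-2.04 ± 0.14, adjusted p = 3.56e-07), and Snhg12 (-1.36) and Snhg4 (-1.15) were lower too. The 1 higher transcript, Snhg18, was past the threshold by a small margin (adjusted p = 0.0263) and was lost without replicate 1 or 2 at 300 mOsm or replicate 2 or 3 at 600 mOsm and with the correction for length, and without replicate 1 of either group 1 of the SR proteins and hnRNPs was higher. Among all 272 long intergenic non-coding RNAs tested, 4.41% were higher and 23.9% lower, beside 15.1 and 20.0% of all genes tested. A list apart from these factors was that of 262 zinc finger genes named Zfp. Of these 10 were higher and 61 lower (3.82 and 23.3%, median -0.14), so the lower share was near that of all genes. Without replicate 1 of either group 6 of the zinc finger genes were higher. At 500 mOsm 120 of them were lower (median -0.44), and directly between 600 and 500 mOsm 92 were higher and 23 lower.

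In the translation machinery outside the ribosome, only the aminoacyl-tRNA synthetases were higher more often than all genes tested (15.1% higher and 20.0% lower). Of 57 genes of ribosome biogenesis 3 were higher and 11 lower (5.26 and 19.3%), the latter with Gar1 (-0.49), Rrs1 (-0.45) and Ubtf (-0.30). In this list 1 was higher without replicate 1 at 300 mOsm or replicate 1 or 3 at 600 mOsm and 5 without replicate 3 at 300 mOsm. Corrected for length, 6 were higher and 11 lower, and with the joint correction 11 and 14. Of 65 translation factors 9 were higher and 11 lower (13.8 and 16.9%). Subunits of eIF3 such as Eif3h (0.25) were among the former and the scaffolds Eif4g1 (-0.20) and Eif4g3 (-0.60) among the latter. The lower factors were 6 without replicate 1 at 300 mOsm or replicate 3 at 600 mOsm. Of 37 aminoacyl-tRNA synthetases 13 were higher and 3 lower (35.1 and 8.11%), with a median of 0.12. Of these synthetases 8 or 7 were higher without the same libraries, and 1 was lower without replicate 1 or 3 at 300 mOsm or replicate 2 or 3 at 600 mOsm. The joint correction gave 20 higher and 1 lower. Lars2 had by far the largest value there, from 569.6, 571 and 698 CPM to 3089.7, 2834 and 2986 CPM (2.28 ± 0.080), but it shares 72 bases at 98.6% identity with Gm15564, one of the 3 loci whose share of counts rose, so that its value is uncertain. Of 46 proteasome genes 12 were higher and 1 lower, but with the correction for length 1 was higher and 2 lower and with the joint correction 6 and 2, and without replicate 3 at 300 mOsm or without replicate 1 or 3 at 600 mOsm 5, 5 and 7 were higher.

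In metabolism, Txnip was higher at 600 mOsm and lower at 500 mOsm. It encodes an arrestin that restrains glucose uptake. The antisense gene Gm15441 overlaps it, and the strand setting of the counts is not given in the sources used here, so reads of the pair may not be told apart. Its level was 6.74, 5.65 and 6.95 CPM at 300 mOsm, 2.58, 2.22 and 1.94 CPM at 500 mOsm and 16.7, 14.4 and 14.1 CPM at 600 mOsm. The groups did not overlap, with the lowest values at 500 mOsm and the highest at 600 mOsm (1.22 ± 0.12, adjusted p = 8.45e-06). The glucose transporter Slc2a1 (-0.43) and the hexokinase Hk2 (-0.52) were lower, as was Arrdc3, another arrestin (-1.30). Of 23 glycolysis genes 10 were higher and 4 lower, with values from 0.13 to 0.32 for the former, such as Pkm (0.19) and Pgk1 (0.16). Without replicate 1 or 3 at 300 mOsm 4 and 5 of them were higher, without replicate 1 or 3 at 600 mOsm 6 and 3, and 2 were lower without replicate 2 at 600 mOsm. The correction for length left 4 higher and 3 lower, and with the joint correction 5 and 5. Sterol synthesis was lower, with 2 of 32 genes higher and 18 lower and a median of -0.26. Hmgcs1, an early enzyme of the pathway, fell from 116, 102 and 103 CPM to 52.99, 61.8 and 47.4 CPM (-0.99 ± 0.10, adjusted p = 1.54e-05), and Sqle, which acts later, was lower as well (-0.72). The higher members were 5 without replicate 2 at 600 mOsm and 1 without replicate 1 or 3 of either group, and with either correction 4 were higher.

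Of 29 genes of the Nrf2 response to oxidants 5 were higher and 10 lower (17.2 and 34.5%, beside 15.1 and 20.0% of all genes tested). Nfe2l2, which encodes Nrf2, was lower (-0.75 ± 0.078, adjusted p = 1.37e-05). Its target Hmox1, heme oxygenase, fell from 137, 148 and 147 CPM to 92.9, 94.3 and 90.1 CPM (-0.64), and Srxn1 fell by 0.63, while Taldo1 and Gstm1 were higher by 0.37 and 0.30. Corrected for length, 3 were higher. Of 7 genes of metallothionein and zinc 0 were higher and 5 lower, Slc30a1 (-0.93) and Mt2 (-0.60) the most. Of 18 clock genes 0 were higher and 8 lower. Per2, a repressor of the clock, fell from 15.1, 14.99 and 16.7 CPM to 4.14, 4.48 and 4.33 CPM (-1.85 ± 0.13, adjusted p = 4.19e-07), and Arntl, an activator, fell by 0.48. Of 57 genes of autophagy and the lysosome 11 were higher, led by the protease Ctsa (0.44), and 5 lower. These were 19.3 and 8.77%, beside 15.1 and 20.0% of all genes tested. Without replicate 1 or 3 at 300 mOsm or replicate 1 at 600 mOsm 7, 5 and 5 of the autophagy and lysosome genes were higher. In this list 2 or 3 were lower without any 1 library of the comparison other than replicate 1 at 300 mOsm, or without replicate 1 at 500 mOsm.

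Across all protein-coding genes the direction went with the length of the gene's transcribed sequence as the deposited table lists it. Of the 644 genes of up to 1 kb 40.5% were higher and 4.66% lower, and of the 1193 genes over 6.5 kb 6.04% were higher and 42.1% lower. The shares changed step by step in between, with medians of 0.21 for the shortest and -0.22 for the longest genes. The order held without the ribosomal protein, oxidative phosphorylation and histone genes, where 28.1% of 484 short genes were higher and 5.58% lower. It also held within levels of expression, as among genes of 32 CPM or more at 300 mOsm 64.3% of the 244 short genes were higher and 62.3% of the 530 long genes lower. At 500 mOsm 7.61% of the short genes were higher and 6.52% lower, and of the long genes 15.0% were higher and 18.9% lower. A correction for length in each library took the relation away by construction, and the medians at 600 mOsm were then 0.034 for the shortest and 0.031 for the longest genes.

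**Figure D3:**
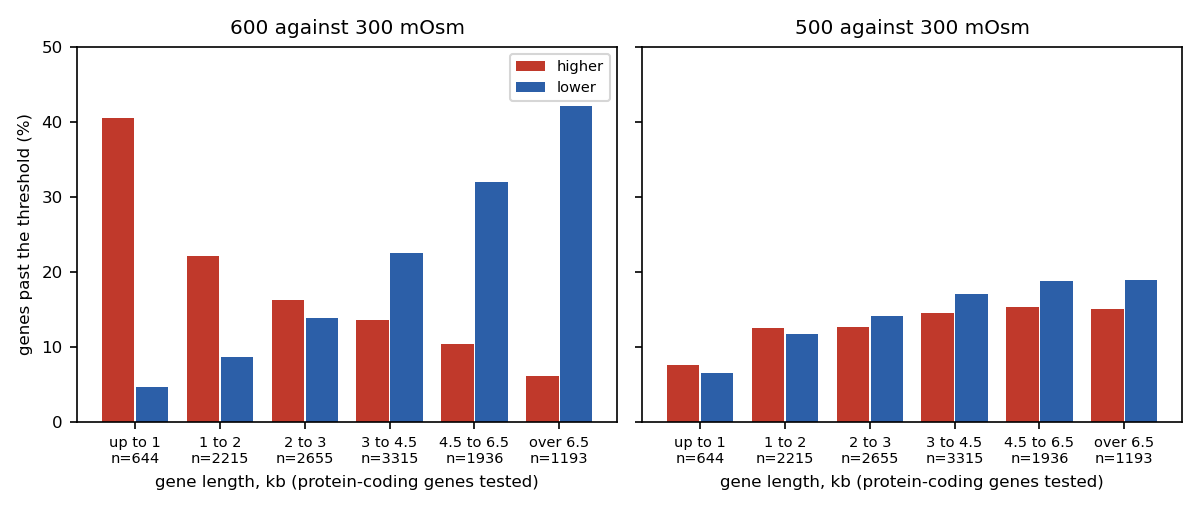
Share of tested protein-coding genes higher (red) or lower (blue) at an adjusted p under 0.05 (y axis, percent) by gene length in kb (x axis, with the number of genes), at 600 mOsm (left) and at 500 mOsm (right) against 300 mOsm. At 600 mOsm the share of higher genes falls from 40.5 to 6.04% and that of lower genes rises from 4.66 to 42.1% from the shortest to the longest class, and at 500 mOsm no bar passes 20%.

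The size of this shift varied between libraries of one treatment. Relative to the mean at 300 mOsm, the median log2 level of the longest genes was -0.26, -0.15 and -0.33 in replicates 1, 2 and 3 at 600 mOsm, and that of the shortest genes was 0.20, 0.14 and 0.22, so that replicate 3 was the furthest in both. Replicate 3 also had the highest share of counts on Gm26917, Yam1 and Gm15564, 1.66%, and replicate 2 the lowest of the 600 mOsm libraries, 1.001%. Fragment sizes and RNA integrity were not among the values analysed here, and their part in the relation to length was not tested.

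Some genes near silent in iso-osmolar medium rose. Of 23287 genes under 0.5 CPM at 300 mOsm 1099 could be tested, and 249 of these were higher, 221 of them protein-coding. A gene of this kind passes the filter on low counts through the group in which it is high, so that these counts have no background share. The highest level was reached by 4933433C11Rik, at 0, 0 and 0.0409 CPM at 300 mOsm and 11.9, 10.5 and 11.7 CPM at 600 mOsm, where a single count stood for all of 300 mOsm. It lies 7523 bases past the end of Tubb4b, a tubulin gene at 437 CPM, on the same strand. Myo15b (4.14, 5.01 and 4.37 CPM at 600 mOsm) lies 5832 bases past the end of Llgl2, and Rpl3l, at 3.06, 2.24 and 1.97 CPM, 5891 bases past that of Rps2. Others, such as Fam166a (6.32, 4.70 and 4.56 CPM) and Trp53cor1 (4.02, 4.61 and 3.25 CPM), had no expressed gene ending on their strand within 20 kb upstream. Trpv2 (3.22, 3.27 and 2.32 CPM) was just outside this limit, 21273 bases past the end of Ubb, a gene at 1020 CPM. Gm20627, at 0 in all 3 libraries at 300 mOsm, was at 3.10, 3.85 and 3.05 CPM, at least 78.4-fold higher than the floor of 3 counts over the group.

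Of the 249 higher genes 35.7% began within 20 kb past the end of a gene of at least 5 CPM on the same strand, as did 22.4% of the 850 near-silent genes tested and not higher and 6.32% of all near-silent genes. On the other side, 22.9% of the 249 ended within 20 kb before such a gene, against 17.4 and 6.46%. With a limit of 0.2 CPM the share past the end of an expressed gene was 36.7% for 188 higher genes and 32.9% for the 237 that were tested and not higher. Of the 815 near-silent protein-coding genes tested 27.1% were higher at 600 mOsm and 55.5% at 500 mOsm, against the same iso-osmolar libraries. Such a gene can pass the filter on low counts through either stressed group. The shares in this paragraph therefore describe the genes that passed, and the part of the filter in them was not tested.

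Because the comparisons at 500 and at 600 mOsm both use the same iso-osmolar libraries, the direct test between 600 and 500 mOsm is the one that bears on a difference, and it called 1560 genes higher and 2250 lower at 600 mOsm (11.9 and 17.2%). Called in opposite directions against iso-osmolar medium, and past the threshold in the direct test, were 18 genes higher at 600 and lower at 500 mOsm. Hexim2, Txnip and Irf1 were among them. Another 138 genes met the same conditions and were lower at 600 and higher at 500 mOsm. The latter included Ier3, which was at 124, 133 and 127 CPM at 300 mOsm, 848, 909 and 976 CPM at 500 mOsm and 49.3, 43.1 and 47.1 CPM at 600 mOsm, and the genes Nfkbia, Tnfaip3, Nfkbiz, Cxcl1, Ptgs2, Cdkn1a, Smad7, Slc5a3 and Cyr61 named above. Other changes were alike in direction at both intensities, as for Sema7a (-3.50 at 600 mOsm and -4.49 at 500 mOsm), Egr3 (-2.75 and -2.60), Lif (-2.48 and -2.73) and Gadd45b (1.54 and 1.44).

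**Figure D4:**
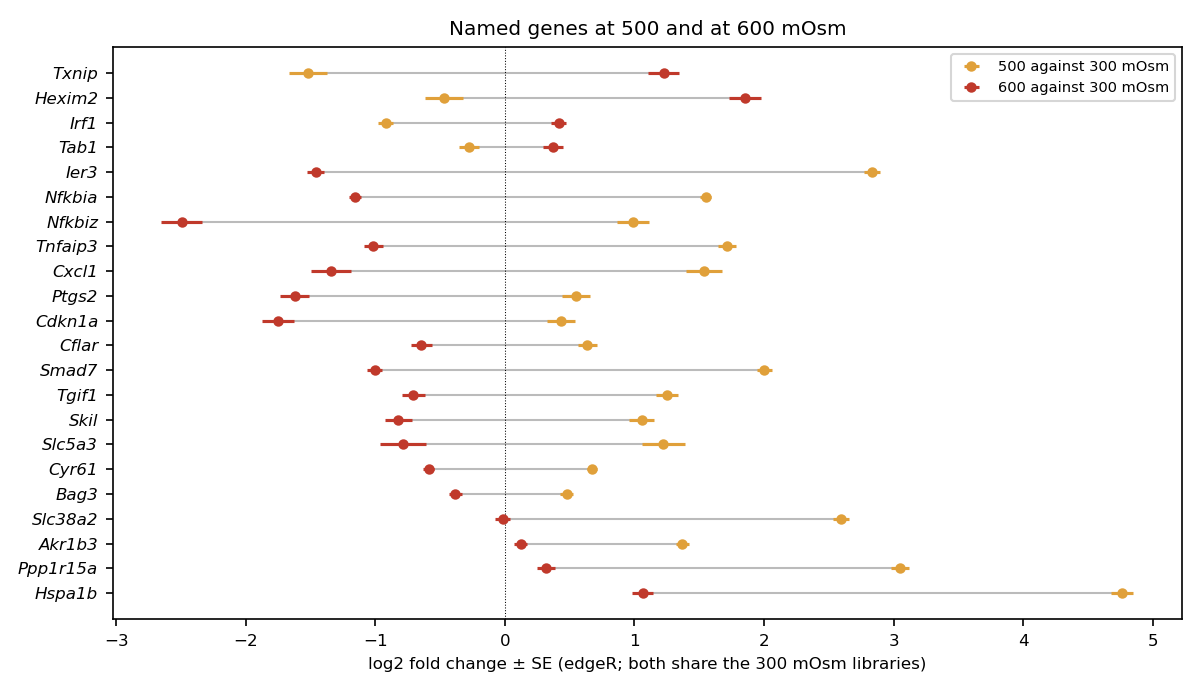
Log2 fold change with its SE (x axis, edgeR) at 500 mOsm (orange) and at 600 mOsm (red), both against the same 3 libraries at 300 mOsm, for 22 named genes (rows), joined by a grey line. Txnip, Hexim2, Irf1 and Tab1 lie to the right of 0 at 600 mOsm and to the left at 500 mOsm, the next 14 genes lie on the opposite sides, and the last 4 rows, Slc38a2 to Hspa1b, lie near 0 or to the right at 600 mOsm and further right at 500 mOsm.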

How the data were processed

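Poly-T-selected RNA of 9 libraries of MEFs was sequenced (HiSeq, paired ends). The submitters' processing notes name CASAVA 1.8 and STAR on mm10, while the counter, its strand setting and the annotation release are not given in the sources used here. The authors deposited read counts per gene and FPKM per library, and their group means, fold changes and p-values were not used. Counts were tested with edgeR 4.0.16 (R 4.3.3) by its quasi-likelihood test with TMM scaling, filterByExpr and Benjamini-Hochberg adjustment, over all 9 libraries with the groups as the only term. CPM are counts scaled to a common library total, and precision follows from 21716042 to 26740832 counts per library. DESeq2 1.42.0, limma 3.58.1 on log2(FPKM + 1) and log2(FPKM + 0.1) of the FPKM the authors deposited, other filters and scalings, corrections for length and GC content, each library left out, and a replicate block were alternatives. The scripts were tested on simulated data. Gene types, positions and lengths came from the deposited table. Exon numbers (34490 of 35275 genes matched by gene ID), GC content and annotated ribosomal RNA came from GENCODE M21. Promoters came from RefSeq by symbol, and shared sequence from blastn 2.17.0. Named genes were the 12 per direction with the smallest p and the 12 with the largest change (average log2 CPM of at least 1), up to 6 per list and direction, all members of 5 short lists, genes the study followed and the 8 highest near-silent genes. The members and lists were chosen with earlier results of these data known. Of the named genes 544 were in the table, 526 were tested, 178 were higher and 213 lower, of which the text describes a part, and some are not reported here.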

Additional observations from a re-analysis of the deposited data

Results flagged for a closer look

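Of the genes described, 22 were called in opposite directions at 600 and at 500 mOsm against the same iso-osmolar libraries. All were past the threshold in the direct test between 600 and 500 mOsm (edgeR's quasi-likelihood test with Benjamini-Hochberg adjustment). Genes with opposite calls against shared libraries can hardly fail the direct test, so it adds little to those calls. The values that follow are log2 fold changes of 600 over 500 mOsm.

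Higher at 600 mOsm were Txnip by 2.74, Hexim2 by 2.32, Irf1 by 1.33, Lrrc8e by 1.25, Tab1 by 0.65, Ell by 0.56 and Cxcl12 by 0.31.

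Of the NF-kB and inflammatory lists, to which Tab1, Irf1 and Cxcl12 above also belong, 5 genes were lower at 600 than at 500 mOsm, with -3.48 for Nfkbiz, -2.88 for Cxcl1, -2.73 for Tnfaip3, -2.71 for Nfkbia and -2.17 for Ptgs2. Ier3 had the largest difference of the 22, -4.29. In the feedback of TGF-beta signalling the values were -3.004 for Smad7, -1.96 for Tgif1 and -1.88 for Skil. The remaining genes were Cdkn1a (-2.19), Slc5a3 (-2.01), Cflar (-1.28), Cyr61 (-1.26), Atxn2 (-0.87) and Bag3 (-0.86). Since the iso-osmolar libraries serve both contrasts, the opposite signs are not independent, and the cause of the differences was not tested.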

How the results depend on the processing

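Corrections for transcript length changed the classes of short and long genes. With the correction for length, the correction for GC and length, and the latter with the replicate block, the median of the longest genes turned to 0.031, 0.026 and 0.028 and that of the shortest was 0.034, 0.027 and 0.028, cytosolic ribosomal proteins numbered 21, 35 and 34 higher, and nuclear oxidative phosphorylation genes 20, 28 and 25. Under the same corrections Slc38a2 turned to 0.090, 0.14 and 0.14 and Slc6a6 to 0.11, 0.088 and 0.088, and under those with GC Dusp1 to -0.015 and -0.015. Slc38a2 passed the threshold in the GC-and-length fits (adjusted p = 0.0129 and 0.0197). Leaving out 1 library gave -0.054 to 0.016 for Slc38a2 and -0.091 to 0.051 for Ccl2, none past the threshold. The alternatives with GC content, and all those for the length medians, were chosen after seeing the data. With limma on log2(FPKM + 1) the median of the longest genes was -0.12.

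A limit of 1 on the size of the log2 value left 742 genes for 600 against 300 mOsm (316 higher, 426 lower), 857 for 600 against 500 mOsm (206 and 651) and 1122 for 500 against 300 mOsm (711 and 411). It left 1 ribosomal protein, 2 oxidative phosphorylation and 1 G2 and mitosis gene higher, and 6 mitochondrial, 4 NF-kB, 11 immediate early and 4 short-lived genes lower. At an adjusted p under 0.01 the 3 comparisons kept 2846 (995 higher), 2352 (790 higher) and, among higher genes at 500 mOsm, 1129. With at least 10 counts in every library 24 histones were higher.

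Leaving out 1 library gave 3567 to 4692 genes for 600 against 300 mOsm, 2950 to 3890 for 600 against 500 mOsm and 3156 to 3895 for 500 against 300 mOsm. Same-numbered libraries did not deviate together on average (mean r of -0.24 over 9 pairs, from -0.69 to 0.61, beside 0.12 over 18 others). In 0 libraries were both closest partners of the same number. Some libraries of unlike number deviated together, as replicate 2 at 300 mOsm with replicate 3 at 600 mOsm (r = 0.60). Others deviated apart, as replicate 2 at 300 mOsm with replicate 1 at 500 mOsm (r = -0.32). Whether libraries shared a batch that the numbers do not mark was not tested. The replicate block, by number, called 1525 genes higher and 2273 lower. Genes under 1 CPM rest on few counts.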
